A study of Homo sapiens with 3 samples.

Results

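The tubulin genes examined here are 10 human genes, TUBA1A, TUBA1B, TUBA1C, TUBA4A, TUBB, TUBB2A, TUBB2B, TUBB4B, TUBB6 and TUBG1, and the data are the clusters of C-to-U RNA editing that name one of them. A cluster was kept when the gene name deposited with it was exactly one of these symbols. This gave 8, 9 and 5 clusters in replicates 1, 2 and 3, or 22 of 40843 clusters in all. They lie in 8 of the 10 genes, and TUBA4A and TUBB have no listed cluster in any replicate. The data name only genes with a cluster, so the share of all genes that have one is not known. None of the 22 clusters carries a second gene name.

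In STAMP, a protein that binds RNA is joined to the deaminase APOBEC1, so that C bases near its binding places are changed to U. The 3 samples are replicates of a single group of HEK293T cells (HEK293XT in the labels, a human embryonic kidney line of wild-type genotype) that expressed APOBEC1 fused to the splicing regulator RBFOX2 under doxycycline for 72 h. The labels give transient transfection as the treatment, while their growth protocol describes stable lines. The study calls the samples biological replicates. No cells without the fusion or with APOBEC1 alone were analysed here, so no editing background was measured. The files hold edited clusters and not expression, so the cell line was not checked by marker genes.

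Alpha- and beta-tubulin form the heterodimers that polymerise into microtubules, the tracks of intracellular transport and the fibres of the mitotic spindle. Gamma-tubulin, encoded by TUBG1, sits in the ring complex from which microtubules grow. The alpha and beta genes form families whose members encode closely similar proteins and share long stretches of coding sequence. Dividing cells hold large amounts of tubulin mRNA, and its stability is set in part by the cell's pool of free tubulin. Since near-identical genes can share reads, and how such reads were placed is not given in the sources used here, the values of single family members are uncertain.

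The edit fraction, in percent, relates the edited C bases of a cluster to the C bases covered by reads there. TUBA1B held most of the edited bases of the family, with 159 of 211 in replicate 1, 60 of 102 in replicate 2 and 125 of 152 in replicate 3. TUBB2A and TUBB2B held fewer edited bases but had higher edit fractions in most of their clusters, at a far lower read depth. Summed over clusters, the edit fraction of the family was 0.434%, 0.444% and 0.653% in replicates 1, 2 and 3, with a mean of 0.510% ± 0.123 (SD, n = 3). Without TUBA1B it was 1.00% ± 0.380, so that the pooled value mainly reflects this gene. The family held 0.208%, 0.0914% and 0.197% of all edited bases from 0.0560%, 0.0593% and 0.0440% of all clusters. Its clusters also held 48593 of 10783343, 22949 of 11944999 and 23291 of 7738834 covered C bases. Over all clusters the pooled edit fraction was 0.939%, 0.934% and 0.997%, above that of the family in each replicate. Without TUBA1B the values of the family were 0.607%, 1.36% and 1.04%. These lay below the series in replicate 1 and above it in replicates 2 and 3. Read depth was not matched in these pooled comparisons.

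**Figure D1:**
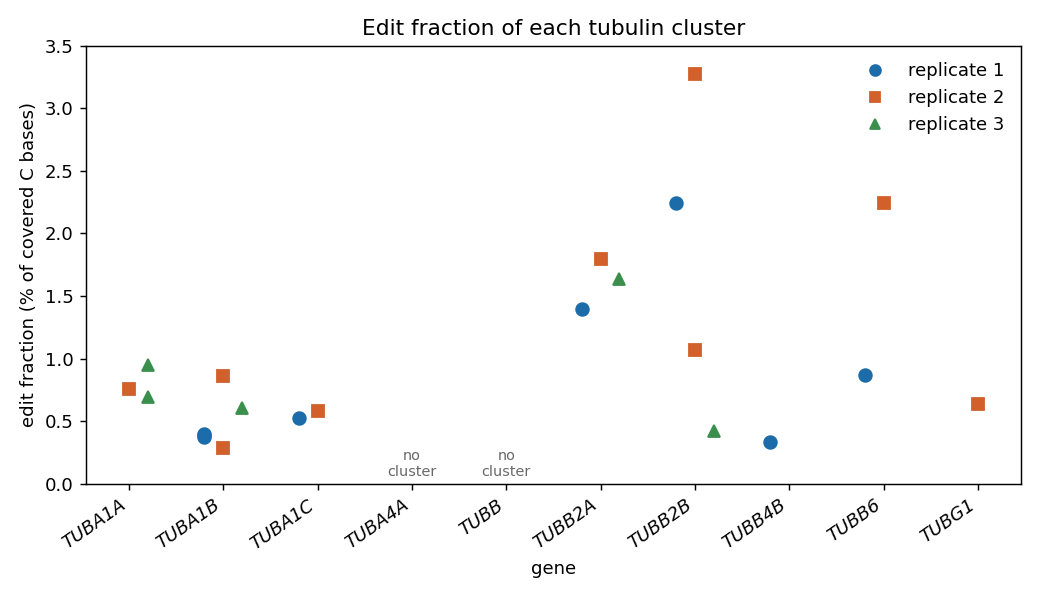
Edit fraction (percent of covered C bases) of each cluster in the 10 tubulin genes, with 1 point per cluster and the colour and shape of a point giving its replicate. The points of TUBB2A lie between 1.40% and 1.79%, those of TUBA1B between 0.289% and 0.862%, and TUBA4A and TUBB have no point.

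Of the alpha-tubulin genes, TUBA1B (a main alpha-tubulin of dividing cells) had 3, 2 and 1 clusters, all on the minus strand in exon 0. Exon numbers rose with genome position in each of 1977 plus-strand and 1913 minus-strand genes with clusters in at least 2 numbered exons, so exon 0 of a minus-strand gene is the one at its 3' end. The first TUBA1B locus, on chromosome 12 from 49521595 to 49521700 (hg19, boundaries as deposited), was found in all replicates. No other tubulin locus was both present in every replicate and covered there at a mean read depth of 50 or more. The clusters of replicates 1, 2 and 3 measured 90, 45 and 105 bases, ended at the same boundary of 49521700 and shared the 45 bases from 49521655.

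In this locus 137 of 34259 covered C bases were edited in replicate 1, 56 of 19408 in replicate 2 and 125 of 20689 in replicate 3. The edit fractions were 0.400%, 0.289% and 0.604%, a mean of 0.431% ± 0.160 (SD, n = 3). Replicate 2, with the shortest cluster, was lowest and replicate 3, with the longest, was highest. The mean read depth was 2006, 2094 and 1040, which placed the locus at rank 74, 80 and 81 by depth among the clusters of each replicate.

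Reads with at least 1 edit made up 91 of 3370 reads in replicate 1, or 2.70% (Wilson 95% interval 2.20% to 3.30%). They were 49 of 2745 in replicate 2, or 1.79% (1.35% to 2.35%), and 75 of 2201 in replicate 3, or 3.41% (2.73% to 4.25%). These intervals cover counting error only, since PCR copies of 1 molecule cannot be recognised without molecular identifiers. The intervals of replicates 2 and 3 do not overlap, but their clusters differ in length, at 45 and 105 bases. For the edit fraction, which is taken per covered C base, the intervals were 0.222% to 0.374% in replicate 2 and 0.507% to 0.719% in replicate 3. They treat each C base as independent, although the 125 edited bases of replicate 3 lay on 75 reads. They are therefore too narrow even for counting error. The part of cluster length in these differences was not tested. An edited read carried 1.51, 1.14 and 1.67 edited bases on average in replicates 1, 2 and 3, again lowest in the shortest cluster.

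A second TUBA1B locus lay 480 bases further towards the 5' end, from 49522180 to 49522240, and was found in replicates 1 and 2 with edit fractions of 0.391% and 0.862%. Its clusters share only 15 bases and rest on 12 and 4 edited reads. A further cluster, from 49522315 to 49522360, was found in replicate 1 only, with an edit fraction of 0.370% at a depth of 206. The read depth of the first locus was thus several times that of the other loci of the same exon, and it was the one that recurred throughout.

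**Figure D2:**
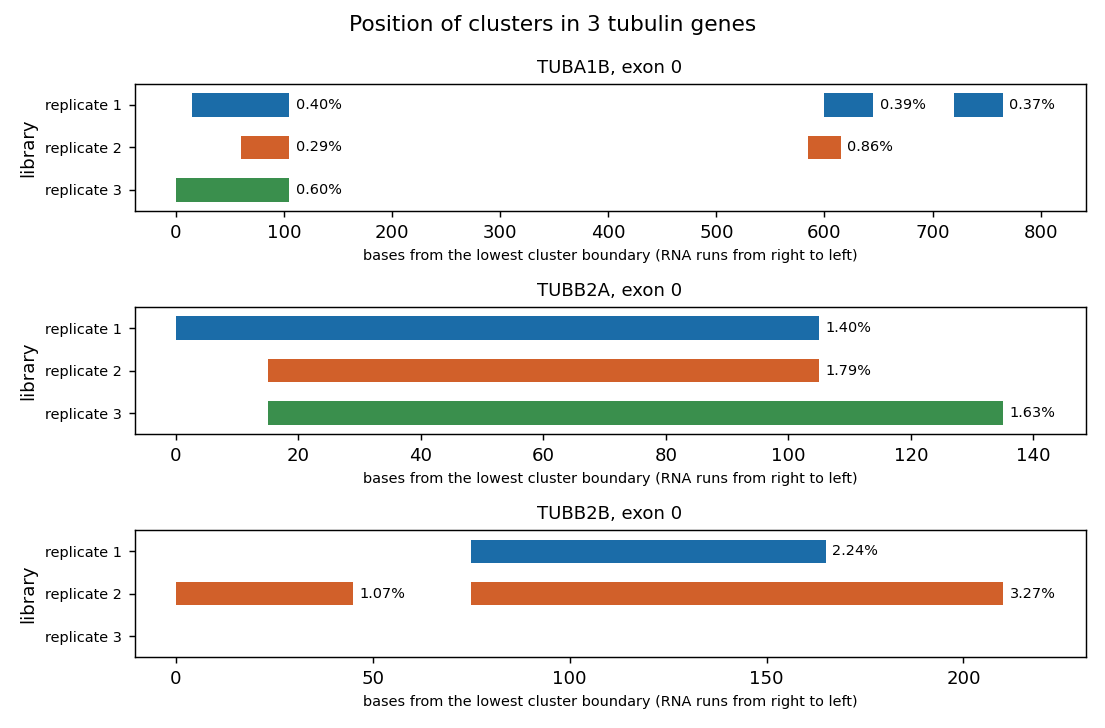
Position of the exon 0 clusters of TUBA1B, TUBB2A and TUBB2B in each replicate, as bases from the lowest cluster boundary, with the edit fraction written beside each bar. The genes lie on the minus strand, so the 3' end is on the left. The first TUBA1B locus and the TUBB2A locus have a bar in each of 3 replicates, and TUBB2B has none in replicate 3.

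TUBA1A (the alpha-tubulin best known from developing neurons) had no cluster in replicate 1, 1 in replicate 2 and 2 in replicate 3, all in exon 0 on the minus strand of chromosome 12. The locus from 49578774 to 49578804 had the same boundaries in replicates 2 and 3, with 3 of 398 and 4 of 423 covered C bases edited. The edit fractions of 0.754% and 0.946% rest on 3 edited reads each, and the share of edited reads was 2.26% and 2.42%. The other cluster, from 49578849 to 49578879 in replicate 3, starts 45 bases beyond it and had an edit fraction of 0.694%.

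TUBA1C, a further alpha-tubulin of dividing cells, had 1 cluster in each of replicates 1 and 2 on the plus strand of chromosome 12, both in exon 18. They do not overlap, since the cluster of replicate 1 runs from 49666981 to 49667026 and that of replicate 2 begins 15 bases beyond it, from 49667041 to 49667071. The edit fractions were 0.527% and 0.579%, at depths of 476 and 227. Replicate 3 has no cluster there. The windows that did not pass the authors' threshold were not analysed here, so the lack of a cluster does not show that the RNA was unedited or not expressed.

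Of the beta-tubulin genes, TUBB2A had 1 cluster in each replicate, in exon 0 on chromosome 6, minus strand, within 3153948 to 3154083. Its clusters measured 105, 90 and 120 bases and shared 90 of them. In replicate 1, 17 of 1217 covered C bases were edited, against 13 of 725 in replicate 2 and 17 of 1040 in replicate 3. The edit fractions of 1.40%, 1.79% and 1.63% had a mean of 1.61% ± 0.199 (SD, n = 3). Relative to their mean, they varied less between replicates than those of TUBA1B. Their Wilson intervals of 0.874% to 2.23%, 1.05% to 3.04% and 1.02% to 2.60% each contain all of these values. These intervals also treat C bases of the same read as independent and are too narrow. The TUBA1B clusters also differed between replicates in number and length. These few edited bases therefore cannot show that the editing of TUBB2A was more reproducible.

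TUBB2A also had the largest mean share of edited reads of the loci found in more than 1 replicate. These were 11 of 108 reads in replicate 1, or 10.2% (Wilson 95% interval 5.78% to 17.3%), 9 of 66 in replicate 2, or 13.6% (7.34% to 23.9%), and 7 of 73 in replicate 3, or 9.59% (4.72% to 18.5%). In each replicate the interval lies above that of the first TUBA1B locus. The TUBB2A clusters are longer, at 105, 90 and 120 bases against 90, 45 and 105. They also lie at depths of 38.6 to 55.4 against 1040 to 2094. The part of length and depth in this difference was not tested. Among clusters of the same replicate and depth class, 98.8%, 98.1% and 94.0% had a smaller share of edited reads than TUBB2A. Against clusters of at least 90 bases in the same classes, these shares were 96.7%, 95.3% and 85.1%, a lower rank in each replicate.

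TUBB2B encodes a beta-tubulin closely related to that of TUBB2A, known for its role in the developing brain, and had 1, 2 and 1 clusters on the minus strand of chromosome 6. The locus from 3224765 to 3224900 in exon 0 was found in replicates 1 and 2, with 5 of 223 and 11 of 336 covered C bases edited. The edit fractions of 2.24% and 3.27% come from 2 of 42 and 6 of 44 reads, at depths of 16.3 and 18.9. A cluster from 3224690 to 3224735 in replicate 2 had 1 edited read with 2 edited bases and was the only tubulin cluster that rests on a single edited read. In replicate 3, TUBB2B was represented by a different exon alone, exon 6 from 3227766 to 3227811, with an edit fraction of 0.424% and the lowest score of the 22 clusters, 0.851. TUBB2B therefore had a cluster in each replicate but no locus common to all.

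TUBB4B, a widely expressed beta-tubulin, had a cluster in replicate 1 only, in exon 4 on the plus strand of chromosome 9 from 140138088 to 140138118. There 15 of 4502 covered C bases were edited, an edit fraction of 0.333% at a depth of 514. TUBB6, a more divergent beta-tubulin, had the same cluster in replicates 1 and 2, in exon 8 on the plus strand of chromosome 18 from 12326428 to 12326473. Its edit fraction was 0.865% and 2.25%, from 3 of 347 and 6 of 267 covered C bases. Its share of edited reads, 3.30% and 4.30%, differed little, and its edited reads carried 1 and 1.5 edited bases each.

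The gamma-tubulin gene TUBG1 had a cluster in replicate 2 only, in exon 20 on the plus strand of chromosome 17 from 40767192 to 40767222. It had 3 of 473 covered C bases edited, an edit fraction of 0.634%, in 2 of 79 reads.

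**Figure D3:**
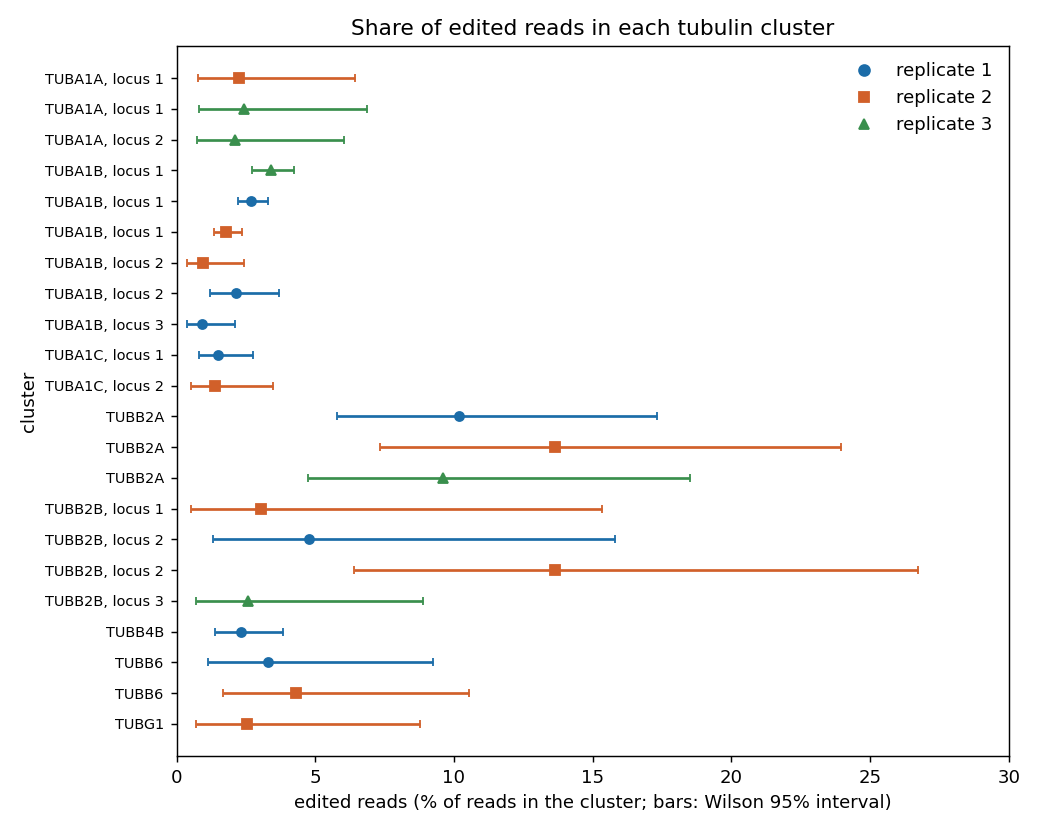
Share of reads with at least 1 edit (percent of the reads in the cluster) for each of the 22 tubulin clusters, with Wilson 95% intervals as bars and loci numbered by position within a gene. The intervals of TUBB2A begin at 4.72% or higher, whereas those of TUBA1B end at 4.25% or lower. The clusters of these genes also differ in length and read depth.

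By mean edit fraction over the replicates in which a gene had clusters, the order from lowest to highest was TUBB4B, TUBA1B, TUBA1C, TUBG1, TUBA1A, TUBB6, TUBB2A and TUBB2B. The neighbours TUBB6 and TUBB2A overlapped in their replicate values, as did TUBB2A and TUBB2B, and TUBB4B and TUBA1C each lay within the range of TUBA1B. From TUBA1C through TUBG1 and TUBA1A to TUBB6 no neighbours overlapped, but each of these genes rests on 1 or 2 replicates. In the genes with clusters in all replicates, the edit fraction of TUBB2A was 3.52, 5.94 and 2.71 times that of TUBA1B within replicates 1, 2 and 3. The difference of 1.17 percentage points was positive in 3 of 3 replicates, with p = 0.25 in a two-sided exact sign-flip permutation test within replicates, the smallest p that 3 replicates allow, for a pair chosen after its values were seen. The genes also differ in read depth, from 38.6 to 55.4 for TUBB2A and from 112 to 2094 for TUBA1B, and the part of depth in this difference was not tested.

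Across the 22 tubulin clusters, Spearman's rho of read depth and edit fraction was -0.814, beside -0.781, -0.774 and -0.791 for all clusters of replicates 1, 2 and 3. The 22 points share libraries, and several share a locus. The authors' filter required a stronger signal at low depth, and its part in these values was not tested. Set against clusters of the same replicate and depth class, 11 of the 22 tubulin clusters lay above the class median, where the classes were split at depths of 10, 20, 30, 40, 50, 100, 200, 500 and 1000. The first TUBA1B locus lay above 35.8%, 17.8% and 61.0% of the clusters with a depth of at least 1000. Their median edit fraction was 0.474% ± 0.0128 (SD, n = 3 replicates). In replicate 3 the locus, at a depth of 1040, was near the lower bound of this class, whose other clusters had a median depth of 2267. TUBB2A lay above 82.9%, 73.3% and 65.2% of its classes, or 74.6%, 58.3% and 53.0% of their clusters with at least 90 bases. In replicate 1 its depth of 55.4 was near the lower bound of its class. The TUBB2B clusters in exon 0 lay above 44.9% in replicate 1 and above 2.81% and 71.4% in replicate 2. The TUBB2B cluster in exon 6 lay above 0.563%. TUBB6 had the highest rank of the 22, 93.4% in replicate 2, but 43.7% in replicate 1.

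**Figure D4:**
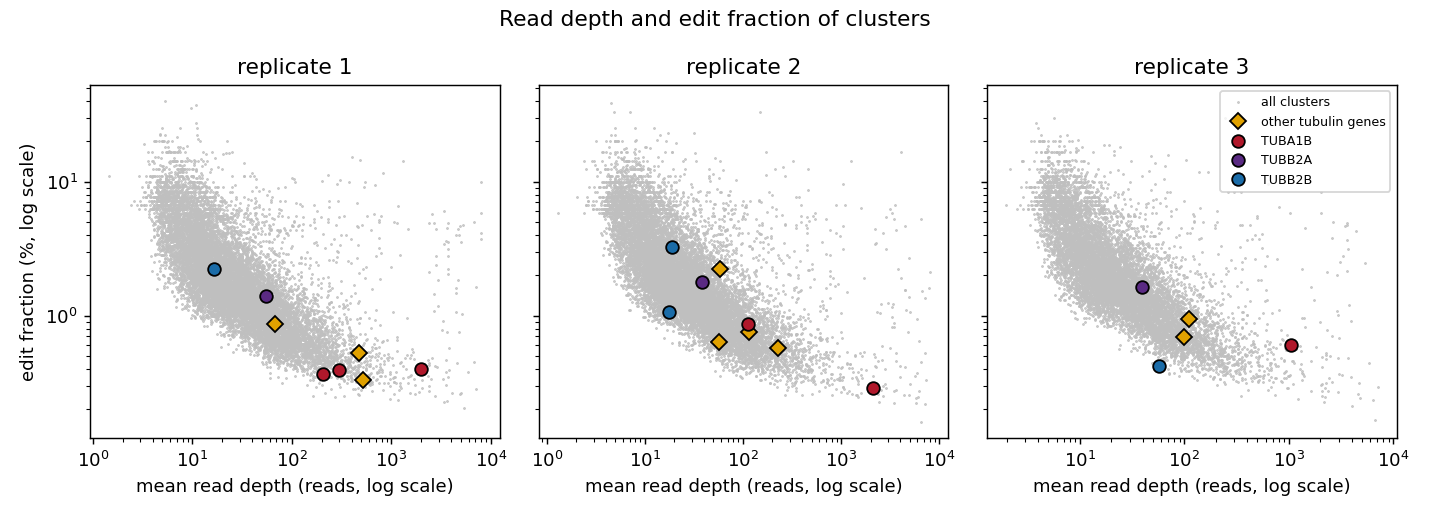
Mean read depth (reads) against edit fraction (percent), both on log scales, for all clusters (grey) and the tubulin clusters (coloured) of each replicate. The tubulin clusters follow the downward course of the grey points, with TUBA1B at depths up to 2094 and TUBB2B at depths down to 16.3.

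Of the 22 tubulin clusters, 17 had a read depth of at least 50. The median edit fraction of these was 0.400%, 0.694% and 0.649% in replicates 1, 2 and 3, against 0.775%, 0.794% and 0.783% in the other clusters of that depth. The difference was -0.203 percentage points ± 0.150 (SD, n = 3) and negative in 3 of 3 replicates, with p = 0.25 in a two-sided exact sign-flip permutation test over replicates, the smallest p that 3 replicates allow. At a minimum depth of 100 it was -0.0171 percentage points and negative in replicate 1 only, with an exact p of 1. At a minimum depth of 50 without TUBA1B, a setting chosen after seeing the data, it was -0.0892 ± 0.0100 (SD, n = 3) and negative in 3 of 3 replicates. Tubulin clusters of any depth had 5.74 ± 0.0858 C bases per 30 bases (median per replicate, SD, n = 3), beside 5.64 ± 0.336 for all clusters. At a depth of at least 50 the value was 5.45 ± 0.507 for tubulin clusters, beside 5.56 ± 0.205 for the other clusters.

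All 22 tubulin clusters lay in exons. Of the 16 on the minus strand, 15 lay in exon 0, the exon at the 3' end, beside 60.8% of 19867 minus-strand exon clusters of the series. The 15 clusters come from 4 genes and 8 loci, so they are not independent. Whether a cluster lies in coding sequence or in an untranslated region was not analysed here.

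The 22 clusters form 14 loci, of which 2 were found in 3 replicates, 4 in 2 and 8 in 1. Recurrence in all replicates was taken to mean that both other replicates had a same-strand cluster sharing 1 base or more. It applied to 2 of 8, 2 of 9 and 2 of 5 tubulin clusters in replicates 1, 2 and 3, all of them in TUBA1B and TUBB2A. Over the series it applied to 10.6%, 9.86% and 13.1% of clusters, and for 25.6%, 23.8% and 30.6% of clusters with a depth of at least 50. It applied to 2 of 7, 1 of 6 and 1 of 4 tubulin clusters of that depth, where the overlapping clusters of the other replicates could have any depth, as in the series shares. By gene, 3 of the 8 tubulin genes with a cluster had one in all replicates, and 6 had one in at least 2. Over 9904 genes with a cluster the shares were 37.9% and 66.3%, near those of the tubulin genes.

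The share of edited reads was compared between replicates with Fisher's exact test at each cluster with identical boundaries, adjusted by Benjamini-Hochberg over 1518 pairs of the series, of which 0.395% had an adjusted p under 0.05. Both tubulin pairs, in TUBA1A and TUBB6, had an adjusted p of 1, and neither had an unadjusted p under 0.05. With 3 or 4 edited reads in each of these clusters, the test cannot show that the replicates agree. Of 10 tubulin pairs that overlap by at least 1 base, 0 had an adjusted p under 0.05, beside 0.272% of 8811 pairs, and 2 had an unadjusted p under 0.05. Both of the latter lie in the first TUBA1B locus, where replicate 2 had a lower share than replicate 1 (Fisher's exact p = 0.0200) and replicate 3 (p = 0.000332, adjusted p = 0.0900). These compare clusters of different lengths in single libraries.

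Of 12 other tubulin genes, 4 had a cluster and 2 of these had clusters in all replicates, beside 37.9% of all genes with a cluster. For the count of genes with any cluster, here and in the gene lists below, no share over all genes is known. TUBB4A, a brain-enriched beta-tubulin, had edit fractions of 1.39%, 1.00% and 1.25% at depths from 9.11 to 35.8, and TUBE1, which encodes epsilon-tubulin of the centriole, had 2.22%, 2.82% and 2.20%. TUBG2 and TUBD1, of gamma- and delta-tubulin, had clusters in 2 replicates each. The files list no cluster in a tubulin pseudogene.

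Among genes that act on tubulin, 11 of 13 folding genes had a cluster and 5 of the 11 had clusters in all replicates (37.9% in the series), including the tubulin cofactors TBCA (0.792% ± 0.0966, SD, n = 3), TBCB (0.467% ± 0.156) and TBCE (1.60% ± 0.313). Of 9 genes of the gamma-tubulin complex, 7 had a cluster and 3 of the 7 had clusters throughout (37.9% in the series), among them TUBGCP2 at 1.20% ± 0.229. Of 17 microtubule-associated genes, 13 had a cluster and 10 of the 13 had clusters throughout (37.9% in the series). STMN1, whose protein sequesters tubulin dimers, held 386, 354 and 200 edited bases at an edit fraction of 0.947% ± 0.0437, more edited bases than all tubulin genes together in each replicate. MAP1S had the highest mean of the latter group at 4.27% ± 0.104, from a single cluster per replicate at depths of 18.4 to 28.0.

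Of 13 genes for tubulin modification and mRNA control, 6 had a cluster and 4 of the 6 had clusters in all replicates (37.9% in the series). These were TTL, the ligase that restores the terminal tyrosine of alpha-tubulin (2.15% ± 0.595), TTLL5 (1.91% ± 0.560), AGTPBP1 (2.08% ± 0.960) and TTC5, which recognises nascent tubulin chains and starts the decay of their mRNAs (1.54% ± 0.284). The levels of these genes come from clusters of different depth and were not tested against the tubulin genes.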

How the data were processed

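RNA editing was measured in 3 replicates of 1 condition. Per the paper's methods and the labels, the authors called C-to-U positions with SAILOR, removed common SNPs and then applied FLARE (30-base windows, an adjusted p-value threshold of 0.1 and merging within 15 bases) to each replicate on its own. The submitters' processing notes name STAR and hg19. The deposited counts (of C bases, covered and edited C bases, reads and edited reads) are unscaled whole numbers. The deposited fraction of edited bases equalled their ratio in all 40843 clusters. The deposited read depth is a coverage signal not scaled to library size, and the score given by the authors is a cumulative negative binomial probability between 0 and 1.

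Sums, medians, Wilson 95% intervals, exact permutation tests and Fisher's exact tests (Benjamini-Hochberg adjusted over all pairs, threshold 0.05) were computed with Python 3.11.15, NumPy 2.4.6, pandas 2.3.3 and SciPy 1.17.1, and plots with matplotlib 3.10.9. The code was tested on simulated data. Reads in clusters number 1637592, 1731304 and 1104249, which is not library depth. In all, 4 clusters had the same position and counts in more than 1 replicate, so the replicates were treated as separate libraries. All 10 genes are named, and loci found in all replicates at a depth of at least 50 are given in full. The other loci are described as well. The members and gene lists were chosen with earlier results of these data known. Sequences, the RBFOX2 motif and protein identity were not analysed here, because a genome of hg19 was not used.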

Additional observations from a re-analysis of the deposited data

How the results depend on the processing

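Alternatives were a score of 0.95 or 0.99 and more, a depth of 50 or 100 and more, 2 or more edited reads, means, other overlap rules and leaving out each replicate. Only the difference from other clusters can change sign, since the other results are counts, shares or fractions. Its mean stayed negative under each alternative, but at a depth of 100 or more it was negative in replicate 1 only. Per the paper, the score is derived from the edit fraction of a cluster, so a minimum score selects on the measured value itself. At a minimum score of 0.99, clusters per replicate moved from 7.33 to 3.67, their median edit fraction from 0.673% to 1.31% and the share found in all replicates from 29.1% to 55.6%. That share was 18.7% both with only clusters of depth 50 or more kept in every replicate (18.651%) and where both clusters had to overlap by 50% or more (18.704%), and 0% with identical boundaries. With means in place of medians the edit fraction was 0.985%. Leaving out TUBA1B, chosen after seeing the data, gave a median of 0.918% and a pooled edit fraction of 1.00%.

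Leaving out 1 replicate gave 6.5 to 8.5 clusters, a pooled edit fraction of 0.439% to 0.549%, a median of 0.579% to 0.778% and a share found in all remaining replicates of 32.5% to 59.0%. The difference from other clusters of depth at least 50 was -0.254 to -0.117 percentage points, -0.349 with means, -1.02 without a minimum depth and -0.0386 at a minimum score of 0.99, where replicate 2 was positive. Since 3 replicates cannot reach a p under 0.25 there, its side of the threshold says nothing about stability. No tubulin pair had an adjusted p under 0.05 under any alternative that left a pair to test. A minimum score of 0.99 and leaving out replicate 2 each left no pair. With few edited reads in most of these clusters, the lack of a call does not show agreement between replicates. Depth limits the precision of TUBB2B, with 1 to 6 edited reads per cluster.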
